A study of Mus musculus with 28 samples.

Results

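Among 5 single Müller glial cells (MGCs) of Rhod-ko retinas at 25 weeks, cells A1, A3 and A4 had more immediate early genes on than cells A2 and A5, and the genes that separated these sides are described here. The sides were chosen on the signals themselves, so every difference between them is a description and carries no test. A gene was listed when its signal was at or above 2000 in all cells of one side and under 1000 in all cells of the other, taking in each cell the highest of the probe sets that name that gene alone. The rule listed 51 genes high in A1, A3 and A4 and 102 genes high in A2 and A5, of 18194 genes measured, which is 0.280% and 0.561% of them. The first direction needed 3 high and 2 low cells and the second 2 high and 3 low cells, so these counts are not on the same footing.

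Each cell was picked by its shape from a papain-dissociated retina and measured on 1 array after amplification of its cDNA. Rhod-ko mice carry a deletion of the rhodopsin gene, which rods need to sense light, on the C57/BL6 strain, and the labels place 25 weeks beside an earlier age of 8 weeks in the same line. The other conditions of the series gave 22 cells: 5 from adult WT C57/BL6 mice (labelled as older than 25 weeks, although the study's text sets a much younger limit, so that they cannot be taken as matched in age), 5 from Rhod-ko mice at 8 weeks, 3 from congenic FVB mice at P13 that lack the rd1 mutation, 5 from rd1 mice on FVB at P13 and 4 from rd1 mice on FVB at 5 weeks, where 2 near-identical arrays (r = 0.989 over probe sets, against at most 0.764 for any other pair) were counted as 1 cell. No sample is tied to an animal, so the 5 cells of a condition may share retinas, and the small number of arrays limits the precision of every count.

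Immediate early genes are transcribed within minutes of a stimulus, before any new protein has to be made. Their products are transcription factors such as Fos, Jun and Egr1, and proteins that end the response, such as Zfp36, which marks mRNAs for decay, the phosphatase Dusp1, which switches off MAP kinases, and Socs3, which inhibits Jak kinases below the gp130 receptor. In MGCs, the radial glia that support the neurons of the retina, induction of Fos is a known early response to injury and to growth factors.

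The promoters of 3 of the 4 immediate early genes that met the rule, Fosb, Junb and Zfp36, are shown with that of Fos. These genes are known to be switched on through short elements upstream of their start sites. The sequences are the last 150 bases before the start in RefSeq (GRCm38.p6), 5′ to 3′ in the direction of transcription, with matches to the motifs searched in capitals.
Fos, chr12:85473740-85473889, plus strand: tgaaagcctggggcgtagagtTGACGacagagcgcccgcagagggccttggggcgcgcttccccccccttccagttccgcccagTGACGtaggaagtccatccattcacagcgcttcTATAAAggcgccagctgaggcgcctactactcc
Fosb, chr7:19310046-19310195, minus strand: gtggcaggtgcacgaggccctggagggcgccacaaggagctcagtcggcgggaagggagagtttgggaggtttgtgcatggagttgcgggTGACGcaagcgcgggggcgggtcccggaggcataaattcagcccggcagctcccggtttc
Junb, chr8:84978749-84978898, minus strand: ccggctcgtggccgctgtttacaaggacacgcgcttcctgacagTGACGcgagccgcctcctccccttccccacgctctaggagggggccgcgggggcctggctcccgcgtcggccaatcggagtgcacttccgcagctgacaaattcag
Zfp36, chr7:28379229-28379378, minus strand: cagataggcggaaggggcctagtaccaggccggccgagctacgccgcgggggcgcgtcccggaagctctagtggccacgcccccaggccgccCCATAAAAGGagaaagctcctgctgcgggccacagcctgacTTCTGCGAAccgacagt
Fos held a TATA box (TATAAA) and 2 copies of TGACG, the first letters of the cAMP response element TGACGTCA. Fosb and Junb each held 1 copy of TGACG, and Zfp36 held a serum response element and a STAT site (TTCNNNGAA). Bases more than 250 before the start were not searched, so a motif not listed for a gene, Fos included, may lie further upstream. Over 250 bases before the start and on both strands, TGACG was found in 30 of 48 immediate early genes with a promoter in the table (62.5%), in 12 of 39 genes high in A1, A3 and A4 (30.8%), in 24 of 87 genes high in A2 and A5 (27.6%) and in 19.8% of all 27025 genes of the table. This short form overlaps the full element and was added to the search after the sequences above had been seen. The full element was found in 4, 2 and 4 genes of these groups and in 1.77% of all genes, the serum response element in 3, 1 and 2 genes and in 1.62% of all, and the STAT site in 3, 4 and 5 genes and in 8.13% of all. The AP-1 site (TGANTCA), to which Fos and Jun dimers bind, was in 3, 3 and 6 genes and in 7.82% of all.

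All 5 cells had the expression of MGCs. Of 19 markers of this cell type, 15 to 17 were on (at or above 2000) in each cell, with Glul at 33639 to 42077, Rlbp1 at 38972 to 53099 and Vim at 35977 to 45861. The number of genes on was 3076 in A1, 3028 in A3 and 2670 in A4, against 3123 in A2 and 2804 in A5, so the sides overlapped. The 100 strongest genes held 11.9 to 13.2% of the summed signal in every cell. Correlation between arrays was 0.567 to 0.610 within a side for A1, A3 and A4, 0.588 between A2 and A5, and 0.542 to 0.612 across the sides, so the whole profiles did not divide in the way the immediate early genes did. Cell A2 stood apart in amacrine cell markers, 5 of 10 of which were on, among them Gad1 at 7293 and Tfap2b at 6632, against 1 or 2 in the other cells including A5. Ganglion cell markers were on in 1, 3 and 2 of 10 cases in A1, A3 and A4, 4 in A2 and none in A5. Rod markers were on in at most 2 of 13 cases, and of 17 markers of microglia and macrophages only Ctss in A3 was on. Bipolar cell markers were on in 3, 2 and 2 of 8 cases in A1, A3 and A4 and in 3 each in A2 and A5. Cone markers were on in at most 2 of 9 cases, astrocyte markers in at most 2 of 5 and vascular markers in 1 to 3 of 11. The 3′ control probe set of Actb had signals of 12317 to 24108 in A1, A3 and A4, 10782 in A2 and 2391 in A5. Its 5′ control probe set had 4173 to 5885 in A1, A3 and A4, 2172 in A2 and 313 in A5. Both Actb controls thus separated the sides. The Gapdh 3′ to 5′ control ratio did not, at 1.17 to 2.05 in A1, A3 and A4 and 1.48 to 1.70 in A2 and A5. The part of these markers and controls in the differences described below was not tested.

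The genes named as typical of the first side differed from the second in level more than in being on or off. Fos, the partner of Jun in the AP-1 factor, had signals of 35461 in A1, 31480.2 in A3 and 29154 in A4, and of 3587 in A2 and 22083 in A5. Egr1, a zinc finger transcription factor, had 32109, 32420 (A3) and 27097 (A4), and 2303 in A2 and 14357 in A5. Both genes were thus on in all 5 cells, with A1, A3 and A4 above A2 and A5, and A2 the lowest. The signal of Fos in A5 was nearer to the high cells than to A2, and that of Egr1 in A5 lay about midway between A4 and A2. Socs3 was at 43245 in A1, 29297 in A3, 9678 in A4, 95.4 in A2 and 7777 in A5. It was off in A2 alone, and A5 lay close to A4. None of these 3 genes met the rule. Their differences of side medians, on the log2 scale after a floor of 1000, were 1.82 for Fos, 2.48 for Egr1 and 3.39 for Socs3. Their size rested on A2: without it they were 0.51, 1.16 and 1.91, and without A5 they were 3.13, 3.8 and 4.87.

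Of 65 immediate early genes measured, 4 met the rule, all high in A1, A3 and A4, and none met it in the other direction. These sides were formed on such genes, and nothing is read from this count beside the 0.280% of all genes. Ier2, a nuclear protein of the immediate early response, had 15567 in A1, 16679 in A3 and 10110.1 in A4, and 8.9 in A2 and 3.2 in A5. It had the widest gap of the 51 genes, the lowest high cell being 101-fold above a floor of 100. Zfp36, which binds AU-rich elements of mRNAs, had 9928, 6549 and 5398 in A1, A3 and A4 and 26.8 and 29.8 in A2 and A5. Fosb, a Fos family member, had 4662, 3580 and 8046 against 164.5 and 49.7. The 3 genes were near the lower end of the scale in both cells of the second side. Junb, which pairs with Fos proteins, had 5411 in A1, 14332 in A3, 3944 in A4, 4.0 in A2 and 965 in A5, so that in A5 it lay just under the limit. On the same log2 scale the differences were 3.96 for Ier2, 2.71 for Zfp36, 2.22 for Fosb and 2.44 for Junb.

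**Figure D1:**
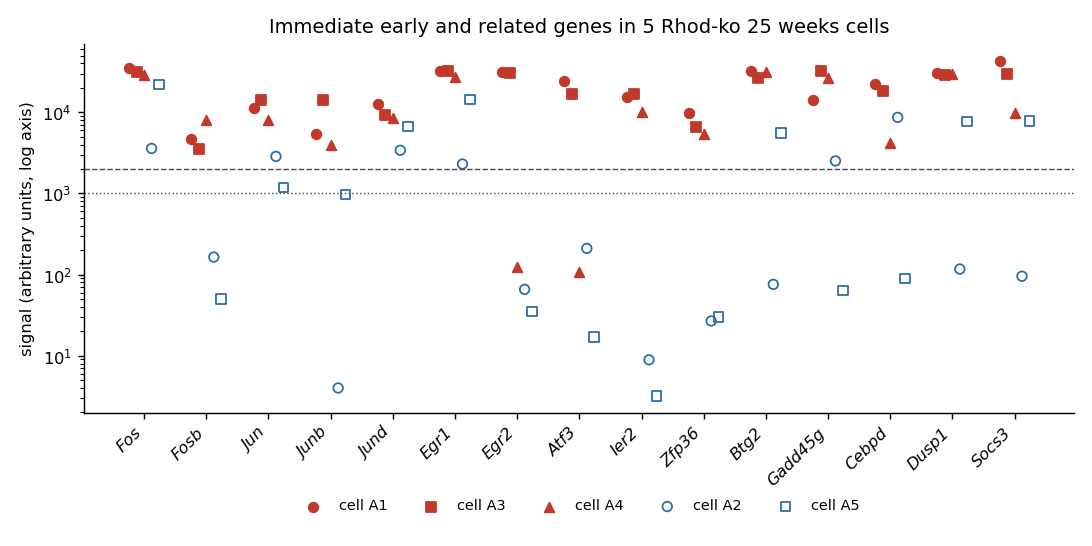
Signal of 15 immediate early and related genes in the 5 Rhod-ko cells at 25 weeks, on a log axis in arbitrary units, with 1 point per cell (filled: A1, A3 and A4; open: A2 and A5). The dashed line marks 2000 and the dotted line 1000; Fos and Egr1 lie above 2000 in all 5 cells, while Ier2, Fosb, Junb and Zfp36 lie above it in A1, A3 and A4 only.

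Over both immediate early lists, 33 of 65 genes were on in A1, 25 in A3, 24 in A4, 13 in A2 and 11 in A5. Of 35 transcription factors 17, 14 and 14 were on in A1, A3 and A4 and 8 and 5 in A2 and A5. Of the 30 other early response genes 16, 11 and 10 were on, against 5 and 6. In 17 of the 40 genes that were on in at least 1 cell, all of A1, A3 and A4 lay above both A2 and A5, and in none did A2 and A5 both lie above the others. Among all 6591 genes on in at least 1 of the 5 cells the sides separated in this way in 622 (9.44%) and in the opposite way in 695 (10.5%). The sides were formed on early genes, so nothing is read from the 17 beside these shares. The remaining 25 early genes, among them Myc, Ptgs2, Nr4a2, Nr4a3 and Fosl1, were off in all 5 cells. Socs3, Dusp1 and Nfkbiz were not among the 65 genes. The 65 did include widely on genes such as Id3, on in 21 of the 22 cells of the other conditions.

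Several early and related genes outside the rule had a wide range. Dusp1 was at 30476 in A1, 28604 in A3, 29635 in A4, 117 in A2 and 7736 in A5, and Btg2, an antiproliferative early gene, at 32137, 26796 (A3), 31681 (A4), 75.7 (A2) and 5524 (A5). In both, the high cells lay close together and A5 was between them and A2. Gadd45g, a stress sensor of the Gadd45 family, was at 14159, 32464 and 26690 (A4), with 2518 in A2 and 63.8 in A5, and here A5 was the lower of the second side. Jun was at 11373, 14184 and 8111 in A1, A3 and A4 and at 2860 in A2 and 1191 in A5. Nfkbiz, a nuclear regulator of NF-kB target genes, was at 22596, 34244 and 31918 against 545 in A2 and 7514 in A5. Dusp1, Btg2 and Nfkbiz were thus off in A2 and on in A5, whereas Jun and Gadd45g were on in A2 and not in A5. These 5 genes were chosen after their values were seen.

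The 3 cells of the first side were not alike. Egr2, a zinc finger factor related to Egr1, was at 31805 in A1 and 30178 in A3 but at 123 in A4, with 65.7 and 35.2 in A2 and A5. Atf3, a stress-induced factor, followed the same pattern at 24230 (A1), 16856 (A3) and 108 (A4), with 210 in A2 and 17.1 in A5. Srf, Ier3, Ccn1 and Tob1 were likewise on in A1 and A3 alone. Arc, which neurons induce with activity, was on in A1 only, at 13594, together with Klf4, Sgk1 and Rhob. Egr3 (2149) and the growth factor Hbegf (5991) were on in A3 only, and Nr4a1 (3196) and Maff (3092) in A4 only. Klf6, Hes1 and Sik1 were on in A1 and A4 and not in A3. On the second side, A5 alone had Id1 on, at 7749, and A2 alone had Plk3 on, at 2009.7. These were the 2 early genes on in a cell of the second side and off in all of the first, while Fos, Jund, Egr1, Id3, Zfp36l1 and Mcl1 were on in all 5 cells.

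Genes that act on the MAP kinase pathway as brakes, and genes of the gp130 pathway, are lists too short for a count of members to be read beside the 0.280% of all genes. Of 16 brakes 6, 8 and 5 were on in A1, A3 and A4 and 4 and 5 in A2 and A5, and none met the rule. Dusp5, an ERK phosphatase, was on in A3 only (10046), and Spry1, an inhibitor of receptor tyrosine kinase signalling, was at 9536 in A1 and 7571 in A3 but at 85 in A4, 477 in A2 and 1609.9 in A5. Of 19 measured genes of the gp130, STAT3 and Socs list, Junb alone met the rule. Stat3, the transcription factor of that pathway, was at 6548 in A1, 3371 in A3, 9016 in A4, 3849 in A2 and 1202 in A5, and the sides overlapped. Il6st, which encodes gp130, was at 9379.6 in A1, 14085 in A3, 5724 in A4, 872 in A2 and 8346 in A5. The receptor gene Osmr was on in all 5 cells and highest in A5, at 20348.5. No ligand of the pathway on the list (Lif, Il6, Il11 or Clcf1) was on in any of the 5 cells.

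Genes of gliosis and of the cell cycle had no member among the listed genes. Gfap, the intermediate filament that marks reactive glia, was at 29918 in A3 and at 78.4 in A1, 29.7 in A4, 41.8 in A2 and 1803 in A5. Of 23 genes of reactive gliosis 14, 16 and 14 were on in A1, A3 and A4 and 13 and 10 in A2 and A5. By medians 5 of them were higher in the first side by at least 1 (log2) and 0 lower, while in 2 both A2 and A5 lay above the other cells and in 0 the reverse. Of 27 cell cycle genes 6, 5 and 2 were on in A1, A3 and A4 and 4 and 5 in A2 and A5, and 1 was higher and 0 lower by this measure. Pcna, the DNA polymerase clamp, was at 5571, 2063 and 1059 in A1, A3 and A4 and at 1833 and 3879 in A2 and A5. Ccnd1, cyclin D1, was at 6177, 7672 and 71.9 against 4683 and 1576, and its difference of medians (1.19 on the log2 scale with a floor of 1000) turned to -1.44 when 1 probe set was used per gene. Of 17 heat shock and chaperone genes 9, 9 and 7 were on against 9 and 8. The median difference of the early lists, like that over all genes, was 0. On the same scale 23 of 65 early genes were higher by at least 1 (log2) and 1 was lower. Of all 18194 genes 957 were higher and 1498 lower. Only 6591 of all genes were on in any of the 5 cells, against 40 of the early genes, so these groups are unlike. The sides were formed on early genes, and nothing is read from this contrast.

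The other genes high in A1, A3 and A4 had varied functions. Their highest signal was 22669.9, the median of their side medians was 5039, and in 36 of the 51 both low cells lay under 500. Nbdy, a microprotein of the mRNA decapping machinery, was at 12885 in A1, 14059.8 in A3 and 22669.9 in A4, with 201 in A2 and 91.4 in A5. Mrpl58, a peptidyl-tRNA hydrolase of the mitochondrial ribosome, was at 7128, 14165 and 13532 against 89.2 and 66.1. Ifitm2, an interferon-induced membrane protein, was at 15659, 14371 and 5011 against 8.6 and 26.9. In all 3 genes the cells of the first side were far above both others. Psmb8, a catalytic subunit of the immunoproteasome and the one gene of 16 on the interferon and antigen presentation list that met the rule, was at 5789, 6269 and 9719 against 83.3 and 5.1. Eif4ebp1, which holds back cap-dependent translation, was at 2586, 6811 and 3751 against 67 and 92.6. Nxph1, a secreted ligand of neurexins, was at 2982, 10559 and 7300.2 against 94.8 and 57. The 10 widest gaps also included the U1 snRNP protein gene Luc7l (3113 to 6947 in the first side) and the mitochondrial ribosomal protein gene Mrps10 (2991 to 8112), both under 100 in A2 and A5.

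The rest of the 51 are grouped by known role for reading only, after their values were seen. Mitochondrial proteins included the import channel subunit Timm23 (5076 to 16412 in the high cells), Mrpl34, the translation factor Guf1, the thiolase Acaa2 (3427 to 12012) and the kinase Bckdk, which controls breakdown of branched-chain amino acids. Membrane traffic was represented by the SNARE Vamp3 (8309 to 10581), the clathrin uncoating kinase Gak, Pacsin3, Agfg1 and the proton pump subunit Atp6v0a2. Transcription and chromatin genes were Ell2, an elongation factor (2310 in A1, 5428 in A3, 10366 in A4), Polr3gl, Tfpt (13477 to 14306), Jmjd6 and the long noncoding RNA Neat1, the scaffold of paraspeckles. Braf, a kinase that activates the MAP kinase cascade, was at 2639, 5771 and 2477 against 159.5 and 901, and Srxn1, which repairs oxidized peroxiredoxins, at 3008, 3980 and 6541 against 67.8 and 875. Vcam1, a cell adhesion molecule, was at 2313, 7525 and 2682 against 709 and 170. Psme3, a proteasome activator, Cul7 and Lnx2, components of ubiquitin ligases, Lrp2 (megalin), Cers4, Bscl2 (seipin) and the tubulin acetyltransferase Atat1 completed the better known genes. Others, such as Glt8d1 (6815 to 11148), Slc38a10, Caskin1, Arrdc2, Fam135a and Commd10, lay under 500 in both A2 and A5.

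The 102 genes high in A2 and A5 had no immediate early gene among them. The median of their side medians was 4784, the highest signal was 24668, and in 76 all of A1, A3 and A4 lay under 500. Ube2ql1, a ubiquitin-conjugating enzyme family member, was at 9617 in A2 and 9358 in A5, with 69, 99.8 and 36.7 in A1, A3 and A4, the widest gap (93.6-fold). Nnat (neuronatin), a small membrane protein, was at 5762 and 16314 against 57.8, 14.5 and 41.3. Prkcb, protein kinase C beta, was at 8396 and 15164 against 197, 83.7 and 103. The second side was high in both cells for each of these. Cstf2, which takes part in cleavage of pre-mRNA 3′ ends, was at 5041 and 5365 against 38.3, 60.9 and 80. Pkig, an inhibitor of protein kinase A, was at 5094 and 4822 against 10.7, 43.7 and 11.9. Eif4ebp2, the paralog of Eif4ebp1, was at 5835 in A2 and 4314.5 in A5 and at 74.1, 48.9 and 61.3 in A1, A3 and A4. The paralogous translation repressors were thus on in opposite cells, but with a fixed probe set Eif4ebp2 was at 153 in A2 and on in A5 alone. Cyria, a regulator of Rac1, the small GTPase gene Rap1b, the retromer subunit gene Vps26b and 2310039H08Rik, which has no gene name in the annotation used, lay between 3651 and 8055 in A2 and A5 and at most at 133 in the first side. Emg1, which modifies 18S ribosomal RNA and was the one gene of 28 on the RNA processing list that met the rule, was at 3204 and 10312 against 52.7, 503 and 69.7.

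**Figure D2:**
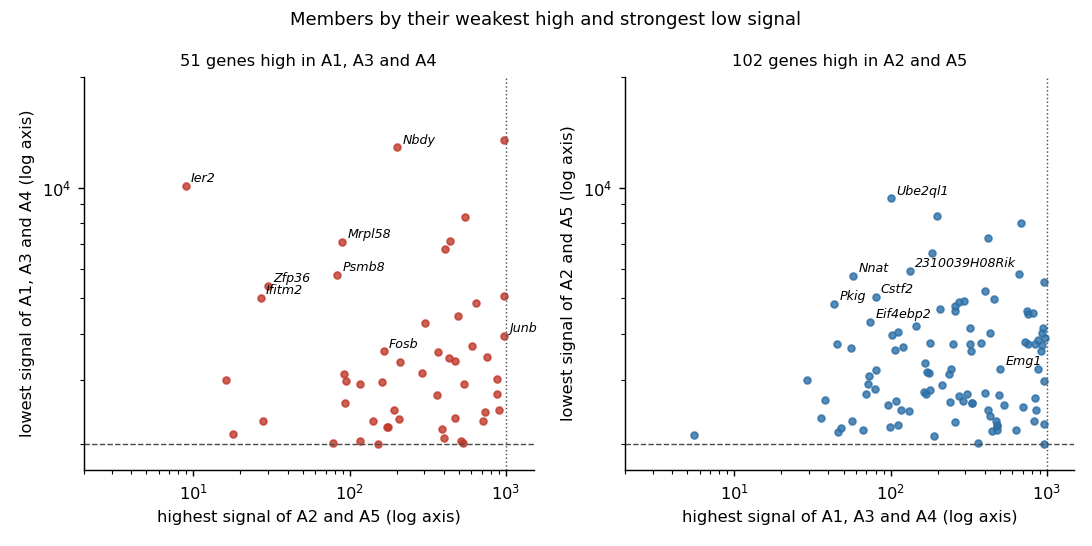
Each point is a gene that met the rule, placed by the highest signal of the low cells (x) and the lowest signal of the high cells (y), both on log axes in arbitrary units; left, 51 genes high in A1, A3 and A4, right, 102 genes high in A2 and A5. The dashed line marks 2000 and the dotted line 1000; Ier2 at the left and Ube2ql1 at the right have the widest gaps.

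Further genes of the second side are given by role in the same way. Calcium and membrane signalling genes were Camk2b (4666 and 6117), the calcium channel Cacna1d (9859 and 2664), the phospholipase Plcg1, the G protein subunit Gnb3 (7535 and 4894), known from cones and bipolar cells, and Rph3a, a Rab3 effector of synaptic vesicles (14962 and 2618). For Rph3a and Cacna1d, A2, the cell with amacrine markers, had the higher signal, and both were also on in A5, where Pax6 was the only amacrine marker on. Genes of DNA repair and telomeres were Msh3 (2280 and 2252), Wrn (4759 and 4603), Top3b, Terf2 and Atmin. Btaf1 and Dr1, which both act on TATA-binding protein, were at 4746 and 5718 and at 3747 and 5684. Zinc transporters were Slc30a4, Slc39a1 and Slc39a9, with 2479 to 11263 in A2 and A5. Translation was represented by the initiation factor subunit Eif3f (14214 and 7279), the ribosomal protein gene Rps25 (11871 and 2181) and Impact, an inhibitor of Gcn2. Secretory and sorting genes included Spcs1 (4515 and 24552), Lman2, Lman2l (3129 and 17723), Trappc9 and Nbas. Genes of the cell surface and matrix were the heparan sulfate proteoglycan Sdc2, Flrt2, Sema5b, Tns1 and Pmp22 (4023 and 14636), and enzymes included the adenosine kinase Adk, Pank2, Nadk2, Bpgm, Blvra and the dNTP hydrolase Samhd1 (4599 and 8852).

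Both lists ran up to their limits without a gap. Just inside were Pacsin3 (2002 in A1), Neat1 (2012 in A3) and Atat1 (2021 in A3) on one side and Hcfc2 (2005 in A2), Plcg1 (2009 in A5) and Sdc2 (977 in A3) on the other. Just outside were Rapgef2 (1006 in A5), Pag1 (1017 in A5) and Tlk1 (1019 in A2), and, in the other direction, Cklf (1997 in A2), Pfn1 (1992 in A2) and Chsy1 (1977 in A2). In 43 of the 51 and 95 of the 102 genes 1 probe set met the rule by itself, and in the remaining 8 and 7 the highest probe set differed between cells. With a fixed probe set for each gene, 8 and 11 of them no longer met the rule. In the first direction these were Braf, Atp6v0a2, Pacsin3, Atat1, Mrpl34, Guf1, Jmjd6 and Fam135a. In the second they were Eif4ebp2, Msh3, Wrn, Btaf1, Terf2, Pank2, Mtmr9, Pofut2, Rhot1, Ubqln2 and Urgcp. Ier2, Junb, Fosb and Zfp36 had 1 single-gene probe set each.

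The early list was chosen with earlier results of these data known. The rule itself did not use the 22 cells of the other conditions. Of these, 5 cells at P13 (the 3 congenic FVB cells and rd1 cells A1 and B1) had 7 to 9 of 11 vascular markers on and only 3 to 7 of 19 MGC markers, against 0 to 4 and 13 to 18 in the other 17, so the labelled cell type was poorly met and counts are given with and without them. The immediate early list had 11 to 18 genes on in adult WT, 7 to 10 in Rhod-ko at 8 weeks, 17 to 19 in congenic FVB, 11 to 23 in rd1 at P13 and 8 to 13 in rd1 at 5 weeks. By this count cells A1, A3 and A4 (33, 25 and 24) lay above all 22, of which rd1 P13 B3 reached 23. Of all genes, 14.7 to 16.9% were on in A1, A3 and A4 and 10.2 to 17.6% in the 22 cells. A1, A3 and A4 were chosen for their early genes, so nothing is read from this rank. By summed signal of the list, adult WT MG1 (349505) lay above A4 (345739) and below A3 (378617) and A1 (410413). With 13 and 11 genes on, A2 and A5 lay within the adult WT range and above every Rhod-ko cell at 8 weeks. The arrays at 8 weeks also differed from those at 25 weeks in a Gapdh 3′ to 5′ ratio of 3.95 to 18.2 against 1.17 to 2.05, in 25.8 to 35.1% of the signal held by the 100 strongest genes against 11.9 to 13.2%, and in 1970 to 2363 genes on against 2670 to 3123. The part of these differences in any contrast between the ages was not tested. The median over the 22 cells was 12, and 11 without the 5 cells.

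**Figure D3:**
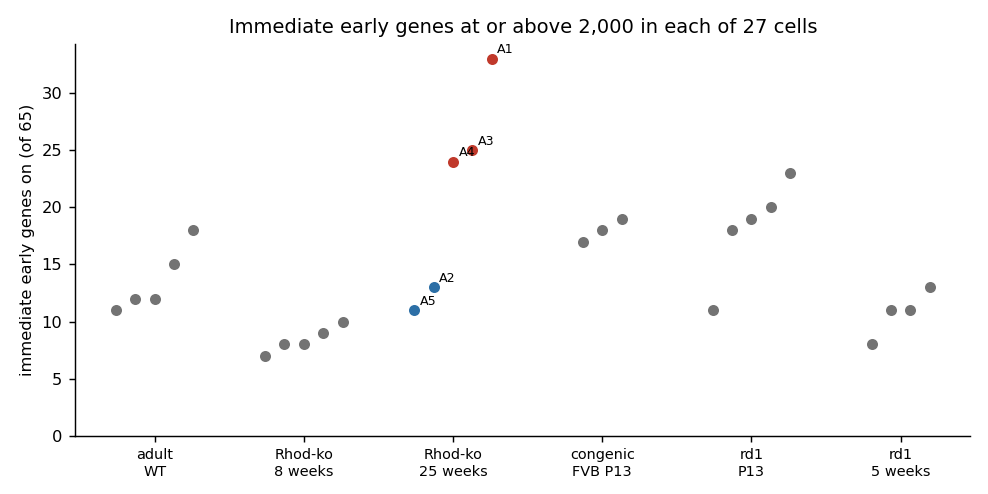
Number of the 65 immediate early genes at or above 2000 in each of 27 cells, by condition, with 1 point per cell ordered by value (red: A1, A3 and A4; blue: A2 and A5; grey: all others). A1, A3 and A4, chosen for their early genes, lie at 24 to 33, and the highest other cell lies at 23. The Rhod-ko cells at 8 weeks lie at 7 to 10. Of all genes, 14.7 to 16.9% were on in A1, A3 and A4 and 10.2 to 17.6% in the cells of the other conditions.

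Across the other conditions Fos was common. It was on in 12 of the 22 other cells, and in 11 of 17 without the cells rich in vascular markers. In adult WT it was at 90168.5 in MG1, 21689 in MG16, 5009.5 in MG22, 19402 in MG15 and 374 in MG3. In Rhod-ko at 8 weeks it was at 38.5 to 103 in all 5 cells, below all cells at 25 weeks, a contrast that moves with the array differences given above. In rd1 it was on in 3 of 5 cells at P13, up to 23174, and in all 4 at 5 weeks (2671 to 21868). Egr1 was on in 9 other cells, in 8 of them together with Fos, at up to 19403 in MG16, below A1, A3 and A4. Among Rhod-ko cells at 8 weeks it was on in cell 8 alone, at 2321.

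The 4 early genes that met the rule were rarer in the other conditions. Fosb was on in adult WT MG1 alone (7295), and Zfp36 in MG1 (11422) and rd1 P13 B3 (2738). Junb was on in rd1 P13 B4 (2628) and B3 (3613) and rd1 5 weeks B1 (2731). Ier2 was on in 5 cells, Rhod-ko 8 weeks cell 1 at 20649.9, rd1 P13 B4 (12594), B1 (5974) and A1 (2129) and congenic FVB A5 (7245), of which 3 are rich in vascular markers. No other cell had all 4 on. Where Fos was on, in 12 cells, Fosb was on in 1, Ier2 in 1, Zfp36 in 2 and Junb in 3. Socs3 was on in MG1 (35188) and rd1 P13 B3 (11713) only. Atf3 and Egr2, on in A1 and A3, were on in none of the 22, with highest signals of 588 and 922.5. Klf2, Klf4, Klf6 and Id1 were on in all 5 cells rich in vascular markers, and in 0, 1, 1 and 3 of the other 17.

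The genes high in A1, A3 and A4 were on in 6 to 12 of 51 cases in adult WT cells and in 14 to 19 in Rhod-ko cells at 8 weeks, which did not overlap. They were on in 13 to 20 in congenic FVB, 13 to 25 in rd1 at P13 and 9 to 16 in rd1 at 5 weeks. The genes high in A2 and A5 were on in 19 to 27 of 102 cases in adult WT, 18 to 27 in Rhod-ko at 8 weeks, 23 to 29, 24 to 38 and 17 to 34 in the other conditions in the same order. Total genes on were 1847 to 2603 in adult WT and 1970 to 2363 in Rhod-ko at 8 weeks. The 100 strongest genes held 15.5 to 21.5% of the signal in adult WT and 25.8 to 35.1% in Rhod-ko at 8 weeks. The Gapdh 3′ to 5′ ratio was 0.554 to 4.06 in adult WT and 3.95 to 18.2 in Rhod-ko at 8 weeks. These conditions also cannot be taken as matched in age. The part of these differences in the counts was not tested. Without the 5 cells rich in vascular markers the ranges over the other cells stayed at 6 to 25 and 17 to 38, and the medians moved from 15 to 14 and from 26 to 25. No test is given, since the sides were proposed with results of the whole series known. Most genes were used in some other cell: Nxph1, Ell2 and Atp6v0a2 of the first side and Msh3, Wrn, Nbas, Mgat5b and Nadk2 of the second were on in none of the 22, and without the 5 cells these numbers became 3 and 10. The most widely on were Vamp3 (17 of 22) and Acaa2 (15) on one side and Eif3f (19), Spcs1 (18) and Mtmr9 (15) on the other. A median member was on in 6 and 5 cells.

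**Figure D4:**
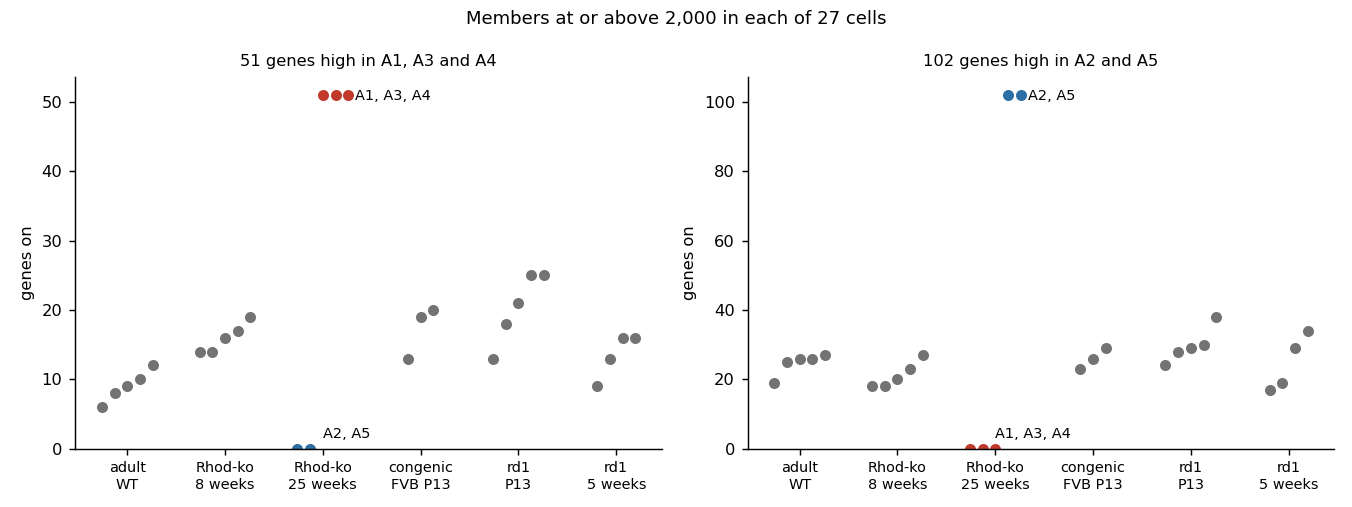
Number of the 51 genes high in A1, A3 and A4 (left) and of the 102 genes high in A2 and A5 (right) at or above 2000 in each of 27 cells, by condition, 1 point per cell ordered by value. By the rule A1, A3 and A4 hold 51 and 0, and A2 and A5 hold 0 and 102; the other cells hold 6 to 25 on the left and 17 to 38 on the right.

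Of the 153 genes, the on and off pattern over the 22 other cells was most like that of Fos for Adk, with both on or both off in 18 cells, then Impact and Slc39a1 (16 each) and Cyria and Pank2 (15 each). All 5 were high in A2 and A5, as were 102 of the 153 genes searched, and Pofut2 also reached 15. Genes outside the 153 were not searched, so no share over all genes is given. Part of the likeness followed condition: Adk was on in 4 adult WT cells and in 0 Rhod-ko cells at 8 weeks, where Fos was off throughout. Adk was at 2559.6 in A2 and 6974 in A5 and at 26, 96 and 42.7 in A1, A3 and A4, so within the 25-week cells it was on where Fos was lowest. The likeness is a count over cells that share array type and amplification and is given as a description.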

How the data were processed

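Single cells were lysed, their RNA was reverse transcribed from an oligo dT primer, and the cDNA was tailed, amplified by PCR and hybridized to Affymetrix Mouse Genome 430 2.0 arrays. The authors deposited MAS5 signal intensity per probe set on a linear scale, and the 2% trimmed mean of each array was 500.0. Amplification from the 3′ end and by many PCR cycles can drop a transcript from a cell, so a low signal is not absence. Of 45101 probe sets, 34958 named 1 gene (34754 updated through Entrez numbers to RefSeq symbols), 932 several and 9211 none, which left 18194 genes. The highest probe set of each gene and cell was used. Genes at or above 2000 were called on. Differences are the log2 medians of A1, A3 and A4 minus those of A2 and A5 after a floor of 1000. No test between the sides was run, since the sides were chosen from the signals and no animal is named. A search for outlying cells is given below.

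The genes and lists were chosen with earlier results of these data known. Genes named were the marker genes Fos, Egr1 and Socs3, list genes that met the rule, the 10 widest gaps in each direction (floor 100), 3 genes on each side of the thresholds, Gfap, Pcna, Ccnd1, Atf3 and Stat3, and up to 5 members most like Fos over the other cells. Others were named after their values were seen. Array correlations used log2 signals floored at 100. Promoters came from RefSeq (GRCm38.p6) and matched 39 of 51, 87 of 102 and 48 of 65 genes. Python 3 with pandas, NumPy and matplotlib was used. The rule was run on simulated data with planted genes far from the thresholds and every other gene equal in all cells. That run checked the code and says nothing of the noise of single cells. The rule and the differences were repeated with other thresholds, with a fixed probe set for each gene, after quantile normalization or with the 90th percentile of the arrays made equal, with floors of 500 and 2000, and without each cell in turn.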

Additional observations from a re-analysis of the deposited data

Results flagged for a closer look

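In groups of 4 or 5 cells, 80 sets of values were examined for a cell far from the rest, and 4 held one. Chance flags about 1 in 20 groups, which is the share found, so no flag is read as a result. Fos in A2, at 3587.2, was far below the other 4 Rhod-ko cells at 25 weeks, including A5 of the same side. The sides were formed on genes such as Fos, so this value was not independent of that choice. Gfap in A3, at 29918, was far above the other 4 of these cells. Among adult WT cells, MG3 had the fewest genes of those high in A2 and A5 on (19, against 25 to 27) and the highest ratio of 3′ to 5′ Gapdh control signal (4.06, against 0.554 to 1.47).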

How the results depend on the processing

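The counts of 51 and 102 genes followed the thresholds. With under 2000 as the lower limit they were 83 and 159, with at least 4000 as the upper limit 14 and 28 (2 of the 4 early genes, Ier2 and Zfp36), and with under 500, 36 and 76. A fixed probe set for each gene gave 47 and 101 (43 and 91 shared), quantile normalization 37 and 75 (31 and 66 shared) and an equal 90th percentile 38 and 77 (32 and 66 shared). A rule over fewer cells lists more genes, and leaving out 1 cell gave 122 (A5) to 198 (A2) genes high in the first side, with 141, 150 and 194 without A1, A3 and A4, and 146 (A4) to 558 (A5) in the second, with 481, 198 and 194 without A2, A1 and A3. Early genes that met the rule were then 4 (without A1) to 10 (without A4) in the first direction, with 7 without A2 or A3, and 0 to 1 in the second, the 1 arising without A5. Without A4 the added genes rest on A1 and A3 alone. Of 470 values for 47 named genes, 306 stayed within 1 SD of the cells of a side, 162 moved by more and 2, both of Ccnd1, were classed as reversed. Some changes of sign were not classed so. The difference of Gfap was -0.43, but 2.03 without A1 and 2.03 without A4. That of Pcna was -0.37, but 0.35 without A4 and 0.17 without A5. The difference of Ccnd1 (1.19) was -1.44 with a fixed probe set and -0.13 without A3, within a range of -0.13 to 1.97 when 1 cell was left out; the cause was not tested. No paired analysis was possible because the cells carry no pairing and no test between the sides was run. The number of arrays and signals near the background limit what can be said of genes under 1000.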
